A study of Oryctolagus cuniculus with 4 samples.

Results

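The ubiquitin specific proteases, ubiquitin-conjugating enzymes, F-box and ankyrin repeat and SOCS box (ASB) ligase subunits and proteasome genes of the rabbit blastocyst were compared between parthenotes and fertilised embryos. Members were the array probes whose description holds one of those names, or whose gene symbol starts with USP, FBXO, ASB, UBE2 or PSM followed by a letter or number. The choice used no measured value. It took 320 of the 43603 probes on the array that are not controls, and these stood for 147 of the 9428 genes that could be named. The members comprised 33 proteasome genes, 21 E2 enzymes (ubiquitin-conjugating enzymes), 38 ubiquitin specific proteases (USP), 37 F-box genes and 13 ASB genes. The other 5 matched by name only and are neither subunits nor enzymes of these classes (PSMC3IP, PSME3IP1, ARIH1, USPL1 and UEVLD).

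All embryos were blastocysts at day 6 of development, from does of the New Zealand White strain. Parthenotes came from oocytes that were activated without sperm, by electrical pulses and then by cycloheximide and 6-DMAP, and that were transferred at once to oviducts of recipient does, so both of their genome copies are maternal. Fertilised embryos were not activated in this way and came from does inseminated with pooled sperm, of males whose strain the paper does not name. Oocyte donors were induced to ovulate with buserelin acetate, and the paper describes the same induction for the inseminated does. On each of 4 arrays a pool of parthenotes, labelled with Cy3, was hybridised against a pool of fertilised embryos, labelled with Cy5, from 150 ng of total RNA each. The dyes were swapped on 0 arrays and embryos of the groups were recovered from different does, so that dye, dam and group cannot be told apart. A single slide carried the 4 arrays. A pool mixes the inner cell mass and the trophectoderm, and fewer cells of a type cannot be told apart from less RNA per cell. Values are log2 ratios of parthenote over fertilised, in which 0 means equal signal and 1 means a doubling in parthenotes. An error after ± is the SD over the 4 arrays (n = 4 pools in each group), and an adjusted p is that of limma. Where neither signal stood out from the background the array software wrote a ratio of exactly 0, as it did for 9134 to 9702 of the 43803 spots on an array, and a probe counts as well above background where that software marked it so. The blastocyst markers POU5F1, KRT8 and GATA3 were well above background in both groups on all 4 arrays.

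Ubiquitin is a small protein that cells attach to other proteins as a tag. An activating enzyme (E1) loads it, an E2 enzyme carries it and a ligase (E3) picks the protein to be tagged. F-box and ASB proteins are the parts of cullin-RING ligases that bind the protein to be tagged, USP enzymes remove the tag, and the proteasome, a barrel of alpha and beta rings with a regulatory cap, degrades tagged proteins. In the immunoproteasome, which interferon induces and which makes peptides for presentation on MHC class I, the catalytic beta subunits PSMB6, PSMB7 and PSMB5 are replaced by PSMB9, PSMB10 and PSMB8. In oocytes and early embryos this machinery clears maternal proteins.

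The measurements rest on probes of 60 bases. The 3 catalytic subunits of the constitutive core and the immunoproteasome subunit that replaces each of them are shown first, since each pair is compared below; capitals in the PSMB9 probe mark a stop codon that closes its open frame, and the others are in lower case throughout.
PSMB6: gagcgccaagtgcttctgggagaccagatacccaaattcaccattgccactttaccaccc
PSMB9: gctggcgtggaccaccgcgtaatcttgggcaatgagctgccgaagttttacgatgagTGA
PSMB7: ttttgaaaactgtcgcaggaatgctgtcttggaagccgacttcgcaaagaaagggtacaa
PSMB10: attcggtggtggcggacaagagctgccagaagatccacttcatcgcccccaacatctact
PSMB5: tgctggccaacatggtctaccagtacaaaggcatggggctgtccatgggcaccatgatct
PSMB8: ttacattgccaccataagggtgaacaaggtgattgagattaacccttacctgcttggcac
The longest run of bases that the paired probes share was 6 for PSMB9 and PSMB6, 5 for PSMB10 and PSMB7 and 6 for PSMB8 and PSMB5, so no probe of a pair holds the other's sequence. The array file places the PSMB9 probe at chr12:23377365-23377424 and the PSMB8 probe at chr12:23359095-23359308, PSMB6 at chr19:12327789-12327848, PSMB10 at chr5:23501550-23501735 and PSMB5 at chr17:43260938-43260997. It names no genome build and gives PSMB7 no position. The PSMB8 positions span 214 bases and those of PSMB10 span 186, more than the probe's own length, so the bases of each are not contiguous in that genome. In the RefSeq table of the assembly mOryCun1.1 the genes PSMB9, TAP1, PSMB8 and TAP2 follow each other.

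Probes of 2 further genes are shown because several of them measured the same transcript, with capitals for the bases that the printed probes of a gene share. UBE2A had 9 probes with 8 different sequences that step along the transcript and overlap by 18 bases in the 3 printed here, while the 5 probes of PSME2 were shifted by single bases, so that the first and the last share 56 bases and count as close to a single measurement.
UBE2A, first: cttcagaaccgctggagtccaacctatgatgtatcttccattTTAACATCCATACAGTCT
UBE2A, middle: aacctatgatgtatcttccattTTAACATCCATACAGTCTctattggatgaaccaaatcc
UBE2A, last: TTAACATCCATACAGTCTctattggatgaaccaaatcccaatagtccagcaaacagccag
PSME2, first: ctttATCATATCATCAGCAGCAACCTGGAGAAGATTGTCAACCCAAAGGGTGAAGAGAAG
PSME2, last: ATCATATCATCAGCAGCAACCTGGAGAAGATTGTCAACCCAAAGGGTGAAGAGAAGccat
The UBE2A probes lie at chrX:68288459-68288808 and, for the last, chrX:68288501-68288850, each a span longer than the probe, and the PSME2 probes between positions 44190832 and 44190895 of chromosome 17. Probes of UBE2A and of its close paralogue UBE2B shared at most 14 bases in a row. USP18 and PSMC3IP, whose values stand apart in their classes, were measured by the following probes.
USP18: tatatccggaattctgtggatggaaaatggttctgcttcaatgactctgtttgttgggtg
PSMC3IP: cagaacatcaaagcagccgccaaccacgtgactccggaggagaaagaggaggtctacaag
The PSMC3IP probe lies at chr19:43319877-43320017 and that of USP18 has no position in the file.

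Of the 147 members, 17 were higher and 15 were lower in parthenotes at an adjusted p under 0.05 (limma), and 115 were not called. These are 11.6% and 10.2% of the members, beside 11.5% higher and 12.3% lower among all 9428 genes, so the members as a whole were called about as often as other genes. Their median log2 ratio was 0.00, as over all genes. In both groups and on all 4 arrays 125 members were well above background, of which 15 were higher and 14 were lower (12.0% and 11.2%, beside 14.5% higher and 14.7% lower among the 6415 such genes). A further 13 members were not well above background in either group on any array and 9 were so only on some arrays or in one group. The changes were small. Of the 125 members well above background, 120 (96.0%) had a mean within 0.5 of 0 on the log2 scale and 0 were beyond 1, whereas 86.4% of all such genes lay within 0.5 and 2.90% lay beyond 1.

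The number of calls depended on single arrays and on the dye correction. Without array 1, 2, 3 or 4 the higher members numbered 10, 3, 6 and 3 and the lower ones 9, 3, 7 and 3, and 3 of the 32 called members (FBXL4, UBE2Q1 and USP34) were called with any single array left out. With normexp background correction and median centring, which leaves out the intensity-dependent dye correction, the median of the genes well above background moved to -0.38 and the split of members became 15 higher and 96 lower. Under that setting 14 of the 17 higher members had a negative log2 ratio, the exceptions being PSMB9, PSMB10 and FBXO47. Of the 15 lower members 0 turned positive, but since the median moved down this is no test of their direction. With normexp and loess 13 of the 17 higher and 9 of the 15 lower members kept their call, and PSMB10, FBXO3, FBXO47, FBXO48, ASB16, ASB17, FBXO7, FBXW7, UEVLD and USP54 lost it. The positive directions given below for the 14 that turned negative are against 0 and hold only with the intensity-dependent dye correction. Since the median moved down, their negative values are no test of direction either. Beside the moved median of -0.38 some of them lay above, such as FBXL4 at -0.028, and others below, such as PSMB4 at -0.66.

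By class, 8 of 33 proteasome genes were higher and 2 lower, 1 of 21 E2 enzymes was higher and 2 lower, 1 of 38 USP genes was higher and 4 lower, 6 of 37 F-box genes were higher and 3 lower, and 1 of 13 ASB genes was higher and 2 lower. The shares higher and lower were 24.2% and 6.06% for proteasome, 4.76% and 9.52% for E2, and 2.63% and 10.5% for USP genes. They were 16.2% and 8.11% for F-box and 7.69% and 15.4% for ASB genes, beside 11.5% and 12.3% of all genes. The median over the 33 proteasome genes was 0.10, against 0.00 over all genes, but it turned to -0.57 with median centring. Over the 29 of them that were well above background the median was 0.09, 0.09, 0.04 and 0.05 on arrays 1 to 4, against 0.01, 0.01, -0.03 and -0.03 over all such genes. Of these 29 genes 14 (48.3%) were above 0 on all 4 arrays and 7 (24.1%) below, beside 28.2% and 30.1% of all genes well above background. The median of the E2 enzymes was 0.00, 0.03, 0.01 and -0.01 on the 4 arrays. Among the genes well above background it was 0.00, -0.07, -0.04 and -0.04 for USP, 0.09, -0.01, -0.09 and -0.09 for F-box and -0.02, -0.04, -0.19 and 0.05 for ASB genes. The proteasome median was thus above that of all such genes on every array, and the USP median was below it on every array. Those of the E2, F-box and ASB genes lay above it on some arrays and below it on others.

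**Figure D1:**
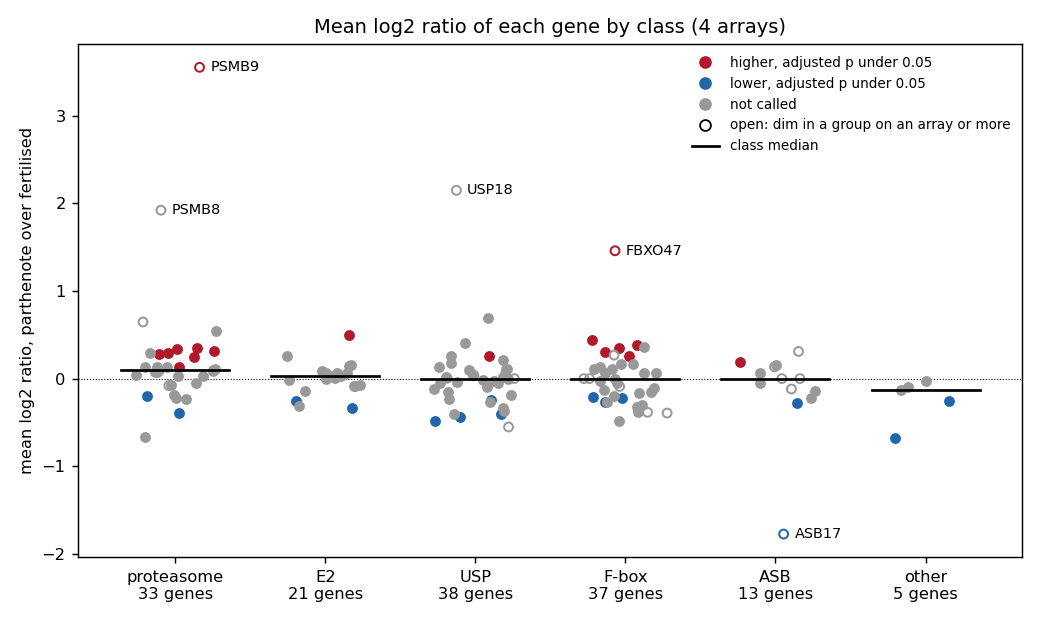
Mean log2 ratio of parthenote over fertilised (y axis) for each of the 147 genes by class (x axis), with the class median as a black line and points spread sideways for legibility. Red and blue points passed adjusted p under 0.05, and open points were not well above background in a group on at least 1 array. Most genes lie close to 0 and the 5 points beyond 1 in either direction, PSMB9, USP18, PSMB8, FBXO47 and ASB17, are all open; the proteasome median of 0.10 is above 0 here and is -0.57 with median centring.

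The immunoproteasome subunit PSMB9 had the largest difference of all members. Its log2 ratio was 3.37, 2.77, 3.99 and 4.07 on arrays 1 to 4, with a mean of 3.55 ± 0.61, adjusted p = 0.0125. The log2 processed signal was 6.98, 7.14, 9.02 and 8.17 in parthenotes and 3.61, 4.37, 5.02 and 4.10 in fertilised embryos, so the groups did not overlap. It was well above background on 4 arrays in parthenotes and on 3 in fertilised embryos. With normexp and loess the log2 ratio was 1.79, still past the threshold, and without array 3 or array 4 the adjusted p was 0.0585 and 0.0699.

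PSMB8, which replaces PSMB5, had log2 ratios of 0.85, 1.11, 3.45 and 2.27 and a mean of 1.92 ± 1.19, adjusted p = 0.102. Its log2 signal was 2.38, 2.53, 4.88 and 3.56 in parthenotes and 1.53, 1.43, 1.43 and 1.29 in fertilised embryos. It was well above background on 1 array in parthenotes and on 0 in fertilised embryos, so the size of its difference is uncertain. Array 3 was the highest and array 1 the lowest. On normalized channels PSMB8 was 1.12-fold higher in parthenotes, with fertilised signals raised to the detection limit. This is no lower limit, since the mean includes parthenote pools near background, and it is open to dye bias. PSMB10, which replaces PSMB7, rose with log2 ratios of 0.43, 0.17, 0.31 and 0.24 (mean 0.28 ± 0.11, adjusted p = 0.0429), and this call was lost with any 1 of the 4 arrays left out and with normexp and loess, where the log2 ratio was 0.13. The thymus subunit PSMB11 was not well above background in either group.

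The constitutive subunits that these replace had smaller log2 ratios. PSMB6 rose, with log2 ratios of 0.42, 0.37, 0.29 and 0.32 and a mean of 0.35 ± 0.05, adjusted p = 0.0115. PSMB7 had -0.03, 0.11, 0.00 and 0.03 (mean 0.03 ± 0.06, 95% interval -0.06 to 0.11) and PSMB5 had 0.06, 0.08, 0.00 and 0.03 (mean 0.04 ± 0.04, interval -0.01 to 0.09), and neither was called. On each array the log2 ratio of PSMB9 exceeded that of PSMB6, by 2.95, 2.40, 3.70 and 3.74. PSMB10 exceeded PSMB7 by 0.46, 0.05, 0.31 and 0.21. Both pairs differed the same way on 4 of 4 arrays, which gave an exact two-sided sign-flip permutation p of 0.125, also when adjusted over the 2 pairs, and this is the smallest that 4 arrays can give. PSMB8 was not compared with PSMB5 in this way, because it was near background.

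PSMB9, PSMB8 and TAP1, the peptide transporter gene that lies between them, were each higher on arrays 3 and 4 than on arrays 1 and 2. TAP1 had log2 ratios of 0.70, 1.18, 2.14 and 1.98 (mean 1.5 ± 0.68, adjusted p = 0.0569), and was well above background on 2 arrays in parthenotes and on 0 in fertilised embryos. The same arrays stood out for USP18, a protease that removes the interferon-induced tag ISG15 and not ubiquitin. Its log2 ratios were 0.00, 0.00, 4.91 and 3.68 (mean 2.15 ± 2.53, adjusted p = 0.302), with log2 signals of 2.30, 2.08, 6.72 and 5.36 in parthenotes and 1.98, 1.74, 1.81 and 1.68 in fertilised embryos. The values of 0.00 are those the software wrote for signals near background. It was well above background on 2 arrays in parthenotes and on 0 in fertilised embryos. Over all 4 arrays it was 1.33-fold higher in parthenotes on normalized channels, with fertilised signals raised to the detection limit. This is no lower limit for USP18, since the mean includes parthenote pools near background, and it is open to dye bias. Its second probe, which shares at most 5 bases in a row with the first, gave 0.00, 0.49, 5.35 and 4.04. BIRC3, a ligase induced by inflammatory signals, had 0.84, 0.49, 3.58 and 2.83 (mean 1.93 ± 1.5, adjusted p = 0.154) for the brightest of 2 probes. That probe was well above background on 4 arrays in parthenotes and on 1 in fertilised embryos. The other probe was called higher, with a mean of 3.44. Of the interferon response list 2 of 10 genes had a probe, and neither was called, with IFIT3 at 0.00, 1.96, 2.93 and 2.35 and IRF1 at -0.39, 0.05, -0.55 and -0.10. IFIT3 was well above background on 1 array in parthenotes and on 0 in fertilised embryos, and IRF1 on 0 and 1.

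**Figure D2:**
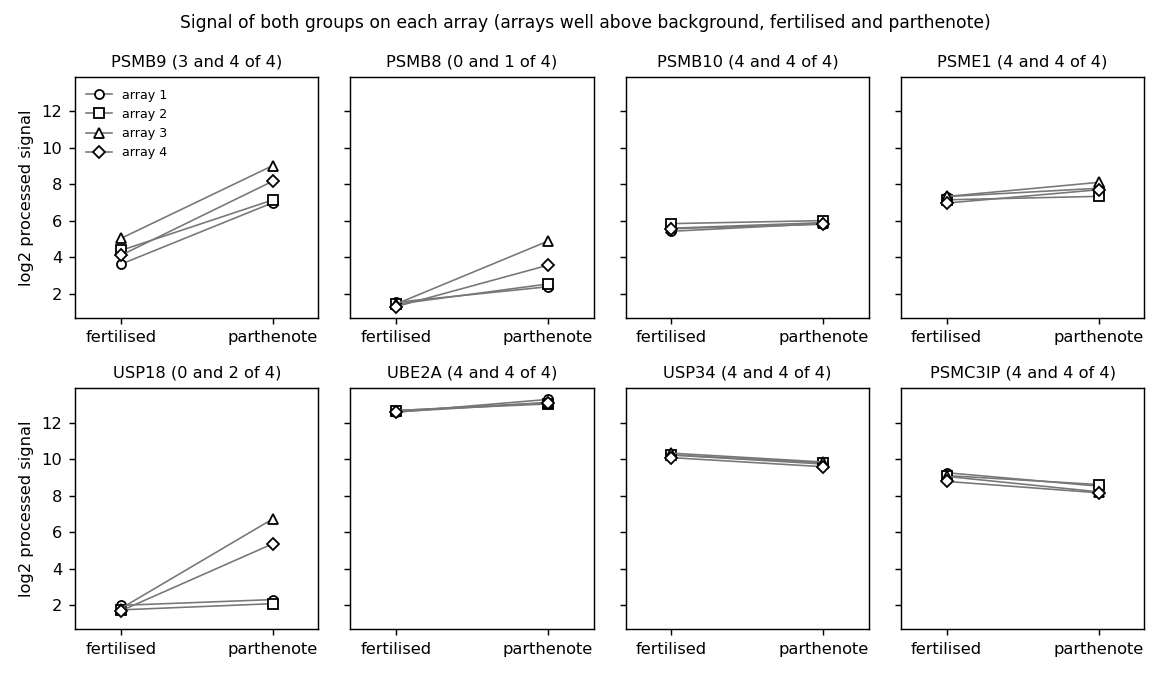
Log2 processed signal (y axis) in fertilised and parthenote pools, joined for each of the 4 arrays by marker shape, for 8 genes. Titles give the number of arrays on which the gene was well above background in fertilised and in parthenote pools. PSMB9 rises on every array, PSMB8 and USP18 lie near the bottom of the scale in fertilised pools and stand out on arrays 3 and 4, UBE2A and PSME1 are higher and USP34 and PSMC3IP lower in parthenote pools on every array, and PSMB10 has the smallest difference of the 8 genes; UBE2A turns negative with median centring.

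Markers of other cells were also higher in parthenotes. Of the leukocyte list 7 of 10 genes had a probe and 3 were higher, CD48 by 1.85 ± 0.30, CD14 by 0.92 ± 0.15 and CD68 by 0.45 ± 0.18 on the log2 scale (with normexp and loess 0.72, 0.54 and 0.22, the last not called), and the summed processed signal of the list was 438 to 506 in parthenotes and 249 to 271 in fertilised embryos. The defining leukocyte markers PTPRC and CD3E were not well above background in either group. Of the secretory list of oviduct and uterus 3 of the 5 genes with a probe were higher (OVGP1, SCGB1A1 and PIGR), with summed signals of 8772 to 33256 against 4558 to 8254. Of the ciliated list 4 of 8 were higher (DNAI1, RSPH1, CFAP144 and DYNLRB2), with 714 to 1584 against 243 to 341, and FOXJ1 was not above background. Of the blastocyst lists, 1 of 8 trophectoderm, 1 of 4 epiblast and 1 of 5 primitive endoderm genes were higher and as many lower. Among all genes 11.5% were higher and 12.3% lower. The part of such cells in the results above was not tested.

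Other core and cap subunits differed by little. Of the 7 constitutive beta subunits 3 were higher and 0 lower (42.9% and 0%, beside 11.5% and 12.3% of all genes). These were PSMB6, PSMB3 with 0.37, 0.20, 0.27 and 0.31 (mean 0.29 ± 0.07, adjusted p = 0.021) and PSMB4 with a mean of 0.13 ± 0.04. For PSMB4 only 1 of 5 probes was called, and the 5 had means between 0.06 and 0.13. Its call was lost with the mean of all probes, with a filter on dim probes and with the methods' t-test. Among the 3 alpha subunits with a probe 0 were called. PSMA8, the alpha subunit of the testis, had log2 ratios of 0.11, -0.89, -1.0 and -0.89, with array 1 apart from the others and an adjusted p of 0.153. None of the 2 ATPases and 7 other subunits of the regulatory cap passed. An unadjusted p under 0.05 in limma was had by 5 of these 9, beside 3963 of all 9428 genes. The ubiquitin receptor PSMD4 had a mean of -0.05 ± 0.03 with a 95% interval of -0.09 to 0.00, and the scaffold subunit PSMD2 had 0.51, 0.26, 0.20 and 0.21 (mean 0.29 ± 0.15, adjusted p = 0.0687). For PSMD7 the brightest of 6 probes gave 0.08 and was not called, while 1 other probe was lower, with means between -0.09 and 0.09.

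The activators, which open the barrel, moved in different directions. PSME2, which with PSME1 forms the interferon-induced 11S ring, rose with 0.18, 0.30, 0.36 and 0.44 (mean 0.32 ± 0.11, adjusted p = 0.0356), and 4 of its 5 overlapping probes were called. PSME1 had 0.46, 0.19, 0.77 and 0.73 (mean 0.54 ± 0.27, adjusted p = 0.0685), which passed the threshold with normexp and loess at a log2 ratio of 0.41. Both were higher on arrays 3 and 4 than on arrays 1 and 2. PSME3, the nuclear activator, rose with 0.31, 0.21, 0.24 and 0.22 (mean 0.24 ± 0.04, adjusted p = 0.0137) in all of its 3 probes. PSME4, an activator linked to histone degradation, fell with -0.25, -0.26, -0.59 and -0.47 (mean -0.40 ± 0.16, adjusted p = 0.0485) in 1 of its 2 probes, and its call was lost with any 1 array left out. The inhibitor PSMF1 was not called (mean 0.13 ± 0.14, interval -0.06 to 0.32).

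The assembly chaperones PSMG1 and PSMG2 work as a pair, as do PSMG3 and PSMG4. PSMG1 fell in all of its 5 probes, with -0.22, -0.18, -0.16 and -0.24 for the brightest (mean -0.20 ± 0.04, adjusted p = 0.0143), while PSMG2 was not called at 0.11 ± 0.22. PSMG3 rose with 0.38, 0.39, 0.22 and 0.35 (mean 0.34 ± 0.08, adjusted p = 0.0202), and PSMG4 had a mean of -0.23 ± 0.15 with an interval of -0.44 to -0.02. A PSMG3-like transcript was not above background in either group.

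**Figure D3:**
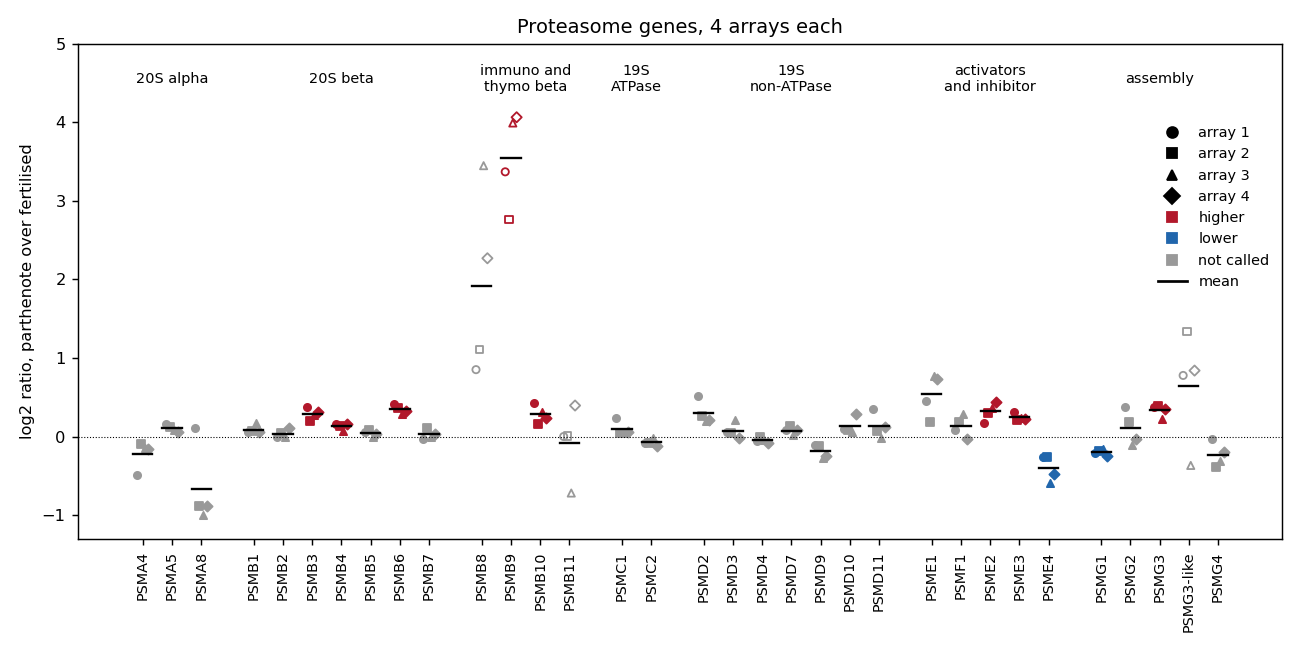
Log2 ratio of parthenote over fertilised (y axis) on each of 4 arrays (marker shape) with the mean (black line) for the 33 proteasome genes, ordered by the part of the proteasome (x axis). Red is higher and blue lower at adjusted p under 0.05, grey is not called, and open markers were not well above background in a group on at least 1 array. The means of PSMB9 and PSMB8 lie above those of all other genes, core and cap subunits stay within 1 of 0, and PSME4 and PSMG1 are below 0; with median centring the red genes other than PSMB9 and PSMB10 fall below 0.

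Among the E2 enzymes UBE2A had the largest difference. UBE2A, a homologue of yeast RAD6 that acts in DNA repair and on histone H2B, had log2 ratios of 0.70, 0.36, 0.45 and 0.50 (mean 0.50 ± 0.14, adjusted p = 0.0261) from log2 signals of 13.27, 13.02, 13.09 and 13.08 in parthenotes and 12.57, 12.65, 12.65 and 12.58 in fertilised embryos. The groups did not overlap, and 9 of its 9 probes were called, with means between 0.37 and 0.50. The call was lost without array 2, 3 or 4 (adjusted p = 0.0773, 0.0978 and 0.12). Its paralogue UBE2B had a mean of 0.00 ± 0.08 with an interval of -0.10 to 0.11. UBE2A is placed on chromosome X by the array file, as are 4 other members. Of these PSMD10 (0.13 ± 0.11) and USP27X (-0.10 ± 0.09) were not called, and ASB9 and ASB11 were not above background.

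UBE2Q1 and UBE2Q2, a pair of related E2 enzymes, both fell. UBE2Q1 was lower by a nearly constant amount, with -0.23, -0.26, -0.26 and -0.25 (mean -0.25 ± 0.01, adjusted p = 0.00429), while UBE2Q2 had -0.27, -0.41, -0.24 and -0.40 (mean -0.33 ± 0.08, adjusted p = 0.022) and lost its call with any 1 array left out. The other 18 E2 enzymes were not called. UBE2C and UBE2S, which serve the anaphase-promoting complex, had means of -0.07 ± 0.11 and 0.03 ± 0.08, UBE2M, which conjugates NEDD8, 0.06 ± 0.10 and UBE2T of the Fanconi pathway 0.14 ± 0.11. UBE2D1 and UBE2D2, which serve many ligases, had 0.26 ± 0.19 and 0.02 ± 0.03. UBE2N, which builds lysine-63 chains, was measured on 3 arrays because its spot on array 2 was marked as an outlier, with a mean of 0.06 ± 0.08 (n = 3), and its partner UBE2V2 had -0.16, -0.48, -0.23 and -0.35 (adjusted p = 0.057). For UBE2L3 the brightest probe gave 0.00 ± 0.04, while 1 of its 3 probes was called higher at 0.13.

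The USP genes were called lower in 4 cases and higher in 1 (10.5% and 2.63%, beside 12.3% and 11.5% of all genes). USP34, which acts on axin in Wnt signalling, had the smallest spread of the called USP genes, with -0.49, -0.44, -0.49 and -0.50 (mean -0.48 ± 0.03, adjusted p = 0.00429). Its log2 signal was 9.73, 9.79, 9.84 and 9.58 in parthenotes and 10.22, 10.23, 10.32 and 10.07 in fertilised embryos, without overlap, and both of its probes were called. USP54 fell with -0.40, -0.49, -0.28 and -0.61 (mean -0.44 ± 0.14, adjusted p = 0.0305) and USP28, which stabilises MYC, with -0.32, -0.37, -0.38 and -0.52 (mean -0.40 ± 0.08, adjusted p = 0.0164). For USP28 only 1 of 3 probes was called, and the 3 had means between -0.40 and -0.21. USP7, the protease of MDM2 and p53, fell with -0.15, -0.31, -0.22 and -0.31 (mean -0.25 ± 0.08, adjusted p = 0.03), in 2 of its 3 probes. USP4 rose with 0.37, 0.28, 0.11 and 0.28 (mean 0.26 ± 0.11, adjusted p = 0.0494). The calls of USP4 and USP54 were lost with any 1 array left out, and with normexp and loess the log2 ratio of USP54 was -0.15 and not called, while that of USP28 was -0.25.

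The other 33 USP genes were not called. USP14, the protease that binds the regulatory cap, had 0.20, 0.12, 0.05 and 0.08 (mean 0.11 ± 0.06, adjusted p = 0.0832), and 1 of its 5 probes was called higher at 0.26. The histone H2A and H2B proteases USP16 and USP22 had means of 0.04 ± 0.10 and -0.37 ± 0.18, the spindle checkpoint protease USP44 -0.05 ± 0.14 and the endosomal protease USP8 -0.16 ± 0.13. USP2 had the largest mean among USP genes that were well above background in both groups on all arrays, 0.62, 0.13, 0.71 and 1.32 (mean 0.70 ± 0.49, adjusted p = 0.129), but its spread was wide. USP31 was well above background in fertilised embryos on 2 arrays and in parthenotes on 0 (adjusted p = 0.164). Near background in some fertilised pools too, USP31 has no strict bound. On normalized channels it was 1.05-fold lower in parthenotes, which is open to dye bias. Its log2 ratio was -0.060 with normexp and loess and 0.11 with median centring, so no direction is given. USP29, USP30 and USP50 were not above background.

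Of the F-box genes 3 of 21 with the symbol FBXO were higher and 2 lower (14.3% and 9.52%). Of 11 FBXL and KDM2 genes 3 were higher and 0 lower (27.3% and 0%). Of 5 FBXW genes 0 were higher and 1 lower (0% and 20%), beside 11.5% and 12.3% of all genes. FBXL4, a mitochondrial protein, rose with 0.38, 0.33, 0.38 and 0.42 (mean 0.38 ± 0.04, adjusted p = 0.0065) and FBXL15, which targets the ligase SMURF1, with 0.26, 0.39, 0.30 and 0.26 (mean 0.30 ± 0.06, adjusted p = 0.0147). FBXO48 rose with 0.33, 0.27, 0.29 and 0.50 (mean 0.35 ± 0.10, adjusted p = 0.0275) in 1 of its 4 probes, and FBXO3 with 0.31, 0.32, 0.14 and 0.25 (mean 0.25 ± 0.08, adjusted p = 0.0331). FBXO47 passed the test at 1.66, 1.73, 1.62 and 0.82, but it was not well above background in either group on any array, so no fold is given. With normexp and loess the log2 ratio was 0.23 for FBXL4, still called, and 0.18 for FBXO48, 0.13 for FBXO3 and 0.065 for FBXO47, which were not called.

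The lower F-box genes were FBXO4, FBXO7 and FBXW7. FBXO4 fell with -0.28, -0.30, -0.19 and -0.29 (mean -0.27 ± 0.05, adjusted p = 0.015) in all of its 3 probes, and FBXO7, which is linked to mitophagy, with -0.22, -0.12, -0.32 and -0.22 (mean -0.22 ± 0.08, adjusted p = 0.0397). FBXW7, which targets cyclin E and MYC, fell with -0.11, -0.17, -0.30 and -0.26 (mean -0.21 ± 0.09, adjusted p = 0.0483) in 2 of its 3 probes. The calls of FBXO7 and FBXW7 were lost with any 1 array left out and with normexp and loess, at log2 ratios of -0.14 and -0.15. FBXO5, the inhibitor of the anaphase-promoting complex, was not called (mean -0.16 ± 0.12, interval -0.33 to 0.00). FBXO32, a ligase of muscle wasting, had -0.13 ± 0.22 for the brightest of 5 probes and was not called, while another was called higher at 0.44 and the other 3 lay between 0.39 and 0.51. FBXO31 was well above background in fertilised embryos on 4 arrays and in parthenotes on 0, with log2 ratios of -0.57, -0.45, 0.12 and -0.68 (adjusted p = 0.2). On normalized channels its bound was 1.09-fold lower, which is open to dye bias. Its log2 ratio was -0.095 with normexp and loess and 0.057 with median centring, so no direction is given.

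Only 7 of the 13 ASB genes, which join target proteins to cullin 5 ligases, were well above background in both groups on all arrays. ASB8 rose with 0.10, 0.26, 0.23 and 0.18 (mean 0.19 ± 0.07, adjusted p = 0.0392) and ASB16 fell with -0.30, -0.27, -0.21 and -0.35 (mean -0.28 ± 0.06, adjusted p = 0.0168), a call that was lost with normexp and loess at a log2 ratio of -0.10. ASB17 had the largest negative mean of all members, with -1.19, -1.92, -2.03 and -1.95 (mean -1.77 ± 0.39, adjusted p = 0.0173). It was well above background on 2 arrays in fertilised embryos and on 0 in parthenotes. On normalized channels it was 1.1-fold lower in parthenotes, with their signals raised to the detection limit. This is no strict bound, since some fertilised pools were near background too. The value is also open to dye bias, since with median centring the log2 ratio of ASB17 was -0.026. With normexp and loess its log2 ratio was -0.31 and past the threshold no longer, and its other 2 probes had means of about 0. For ASB13 the brightest of 3 probes gave -0.14 ± 0.14 and was not called, while 1 other was called lower at -0.15.

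PSMC3IP was the lowest of the members that were well above background in both groups on all arrays. The gene, also known as HOP2, encodes a protein of meiotic recombination and takes its symbol from the binding of its protein to the cap subunit PSMC3. Its log2 ratios were -0.74, -0.49, -0.84 and -0.62 (mean -0.67 ± 0.15, adjusted p = 0.018), from log2 signals of 8.51, 8.60, 8.20 and 8.15 in parthenotes and 9.25, 9.09, 9.05 and 8.77 in fertilised embryos, which did not overlap. The call was lost with any 1 array left out, with an adjusted p of 0.0526 to 0.0938. UEVLD, an E2-like protein without catalytic activity, fell with -0.22, -0.23, -0.33 and -0.25 (mean -0.26 ± 0.05, adjusted p = 0.0153) in 1 of its 2 probes, but with normexp and loess its log2 ratio was -0.12 and not called. USPL1, ARIH1 and PSME3IP1 were not called.

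**Figure D4:**
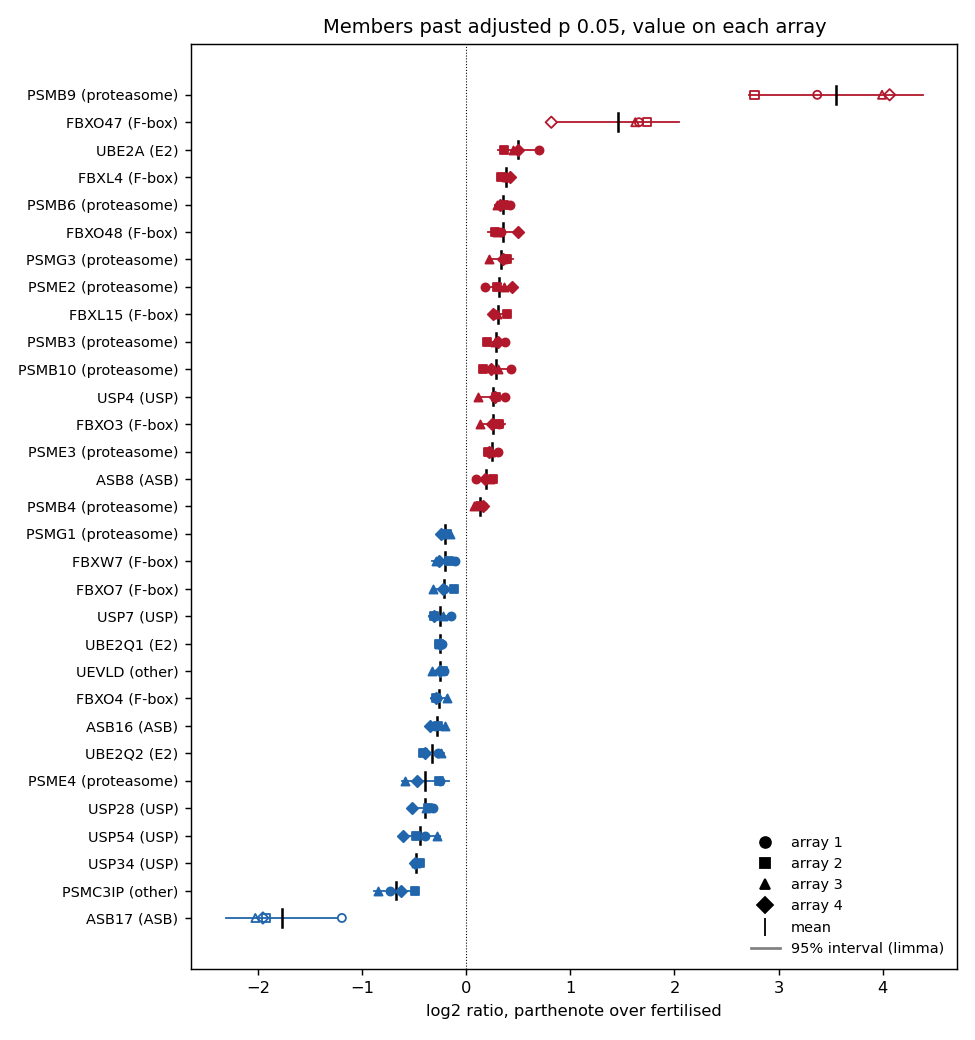
Log2 ratio of parthenote over fertilised (x axis) for 31 of the 32 members past adjusted p under 0.05, sorted by mean (y axis, class in brackets), with 1 marker per array, the mean as a black tick and the 95% interval of limma as a line. Open markers belong to genes not well above background in a group on at least 1 array. All 4 markers lie on the same side of 0 for each gene, and apart from PSMB9, FBXO47 and ASB17 all means lie between -0.67 and 0.50; with median centring all drawn genes above 0 other than PSMB9, PSMB10 and FBXO47 fall below it.

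The other genes of the pathway were described by lists of known E1 enzymes, ligase partners, ligases, deubiquitinases and shuttles. Of their 130 genes 72 had a probe, 10 were higher and 8 lower (13.9% and 11.1%, beside 11.5% and 12.3% of all genes), so these lists too were called about as often as other genes. Among E1 enzymes and ubiquitin-like proteins 1 of 6 was higher, UBA3 of the NEDD8-activating enzyme with 0.29, 0.24, 0.36 and 0.31 (mean 0.30 ± 0.05, adjusted p = 0.0123), while UBA1, the main ubiquitin-activating enzyme, had 0.18 ± 0.15 (adjusted p = 0.182). Among 21 partners of cullin-RING ligases and the anaphase-promoting complex 4 were higher and 2 lower. The scaffold of the ASB ligases, CUL5, rose with 0.37, 0.34, 0.21 and 0.42 (mean 0.34 ± 0.09, adjusted p = 0.0227), as did the adaptor ELOB with 0.16, 0.31, 0.18 and 0.24 (mean 0.22 ± 0.07, adjusted p = 0.0282). The scaffold of the F-box ligases, CUL1, fell with -0.26, -0.26, -0.14 and -0.31 (mean -0.24 ± 0.07, adjusted p = 0.0267). DDB1 (0.44 ± 0.13) and COPS3 (0.26 ± 0.09) were higher and COPS8 (-0.26 ± 0.03) was lower. With median centring UBA3, CUL5, ELOB, DDB1 and COPS3 turned negative. The F-box genes BTRC (0.10 ± 0.20) and CCNF (-0.23 ± 0.16), which the choice of members did not take, were not called.

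Among 29 other ligases 2 were higher, NEDD4 (0.30 ± 0.06) and UBE3B (0.27 ± 0.11), and 4 lower, HUWE1 (-0.30 ± 0.08), UBR2 (-0.35 ± 0.06), RNF4 (-0.36 ± 0.11) and HECW2, which was well above background on 1 array in fertilised embryos only. UBE3A, an imprinted gene in neurons, had 0.11, 0.19, 0.03 and 0.14 and was not called (adjusted p = 0.0935). Among 9 other deubiquitinases STAMBP (0.28 ± 0.10) was higher and OTUB2 (-0.33 ± 0.12) was lower. With median centring UBE3B and STAMBP turned negative and HECW2 turned positive. The calls of NEDD4, UBE3B, HECW2, STAMBP and OTUB2 were lost with normexp and loess. Of 7 shuttles and regulators, UBQLN4 rose with 0.71, 1.04, 0.83 and 0.82 (mean 0.85 ± 0.14, adjusted p = 0.0118), with a log2 ratio of 0.42 under normexp and loess. RAD23B, which like UBQLN4 carries tagged proteins to the proteasome, had probes called in opposite directions. The brightest was higher, with 1.05, 0.53, 0.51 and 0.72 (mean 0.70 ± 0.25, adjusted p = 0.0365), and the other 2 were lower, down to a mean of -0.37, so that no direction is given for the gene. The 4 NEDD4 probes had means from -0.02 to 0.43, and 3 were called higher. NFE2L2, a transcription factor that ubiquitin ligases keep low, fell with -0.37, -0.39, -0.34 and -0.33 (mean -0.36 ± 0.03, adjusted p = 0.00563), also with any 1 array left out.

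Probes of the same gene were compared last. Of 68 members with several probes 0 had calls in both directions, and for 8 the brightest probe was not called while another was. Of the 320 member probes 143 shared a run of at least 30 bases with another probe of their gene, so that agreement between them is in part agreement of a sequence with itself.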

How the data were processed

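Total RNA of 4 pools of parthenotes and 4 pools of fertilised embryos was measured on 4 two-colour arrays of 60-base probes, and the paper describes the pools as independent. As deposited, the arrays are output of Agilent Feature Extraction 10.10.1.1 (submitters' processing notes), in which the authors' scanner software gave background-subtracted, dye-normalized processed intensities for each channel and their log10 ratio. The deposited value table of the series holds the same log10 ratios with the sign turned, so Cy3 over Cy5 (slope -1 on the scanner ratios of each array, each column's median 0, no further centring), and was used as an alternative only.

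Here the log10 ratio was turned to log2 of parthenote over fertilised, spots marked as outliers were left out, spots of a probe were averaged, and the two-sided moderated test of limma 3.58.1 (R 4.3.3, functions lmFit and eBayes) was run on the 43595 probes that 3 or more arrays measured. Every adjusted p given without another test's name is limma's, after Benjamini-Hochberg over these probes, with calls under 0.05. Intervals are 95% intervals of limma. A gene is represented by its brightest probe. Levels of different probes were not compared. Tables and exact tests were made in Python 3.11.15 (scipy 1.17.1, pandas 2.3.3, numpy 2.4.6) and figures with matplotlib 3.10.9. The fit was tested on data simulated with the spread of the tested probes. It recovered 11 of 50 changes of 1.5-fold and 34 of 50 changes of 2-fold. Far fewer probes were changed there than were called in the data, so these counts do not measure the power of the test here. A gene that was not called can still differ.

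The array file and the RefSeq table of the assembly mOryCun1.1 named 20803 probes, 10981 by accession, 8776 by gene identifier and 1046 by other means. The table served for names and gene order only, since the array file names no build. Of the 320 member probes 276 matched by description, 286 by symbol and 242 by both, and 4 had no symbol in the RefSeq table. The members and gene lists were chosen with earlier results of these data known. Named were up to 6 called genes per class and direction, those with the largest mean among genes whose arrays shared a sign, and a list of fixed names. These rules named 59 genes, beside 1 called member that is not reported here by name, and a further 37 were named after their values were seen (such as TAP1, USP18, UBQLN4 and the pathway genes called).

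On an array 25805 to 26339 spots were well above background in parthenotes and 27508 to 27835 in fertilised embryos, 26 to 48 spots were marked as outliers, and the log2 ratios of array pairs correlated with r between 0.667 and 0.815 (over probes, which do not count as replicates). The number of arrays limits the precision. Both pools of an array enter as a pair through their ratio. Alternatives were other background corrections and normalizations (normexp with offset 50 and loess, or median centring), the ratio of processed signals, a filter on dim probes, outlier spots kept, the methods' t-test, unpaired channels, a variance trend, the mean over probes and each array left out.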

Additional observations from a re-analysis of the deposited data

Results flagged for a closer look

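In 6 named genes 1 array lay apart from the other 3, judged by the gap to the nearest value as a share of the range of the 4 values. The log2 ratio of PSMA8 was 0.11 on array 1 and -1.0 to -0.89 on the others, and that of ASB17 was -1.19 on array 1 and -2.03 to -1.92 on the others. For BTRC it was 0.39 on array 1 and -0.04 to 0.03 on the others. FBXO4 had -0.19 on array 3 and -0.30 to -0.28 elsewhere, HECW2 had -0.42 on array 4 and -0.79 to -0.74 elsewhere, and PSMD10 had 0.29 on array 4 and 0.06 to 0.09 elsewhere. Of the 99 groups of 4 values examined, chance would pick about 1 in 20. Without array 1 the adjusted p of ASB17 was 0.0177, and the causes were not tested.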

How the results depend on the processing

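With each array left out in turn, 3 to 10 members were higher and 3 to 9 were lower, and the USP median was -0.034 to -0.0073. With the pools of an array treated as unpaired (no replicate block) 18 members were higher and 12 lower, of which 9 and 9 were shared with the paired test, and the unpaired test also called IFIT3 (adjusted p = 0.0188), PSMB8 (adjusted p = 0.0253), PSMD2 (adjusted p = 0.0273), PSME1 (adjusted p = 0.0384), USP22 (adjusted p = 0.0374) and USP31 (adjusted p = 0.0403) and left 19 of the named genes uncalled that the paired test called (limma). With the dim-probe filter 25 members were lower and the ASB median was -0.084, the methods' t-test called 10 higher and 10 lower, and the ratio of processed signals gave 29 higher and 24 lower. Normexp and loess with the local background of a few spots repaired, an alternative chosen after seeing the data, gave 25 higher and 26 lower. Intensity trend and robust estimation, outlier spots kept, plain normexp and loess, the mean of all probes and the value table kept both counts within 1.5 times. With normexp and median centring 96 members were lower and 15 higher, and the class medians were -0.57 for proteasome, -0.62 for E2, -0.29 for USP and -0.14 for F-box genes. These log2 ratios turned negative under that setting: ASB8 -0.34, BTRC -0.28, COPS3 -0.33, CUL5 -0.29, DDB1 -0.22, ELOB -0.57, FBXL15 -0.20, FBXL4 -0.028, FBXO3 -0.048, FBXO48 -0.016, PSMB3 -0.50, PSMB4 -0.66, PSMB5 -0.71, PSMB6 -0.61, PSMB7 -0.64, PSMD10 -0.41, PSMD2 -0.52, PSMD7 -0.75, PSME2 -0.36, PSME3 -0.40, PSMF1 -0.25, PSMG2 -0.55, PSMG3 -0.32, STAMBP -0.14, UBA1 -0.53, UBA3 -0.34, UBE2A -0.22, UBE2B -0.72, UBE2D1 -0.30, UBE2D2 -0.68, UBE2M -0.64, UBE2N -0.65, UBE2S -0.67, UBE2T -0.35, UBE3A -0.55, UBE3B -0.085, USP14 -0.56, USP16 -0.55 and USP4 -0.44, and HECW2, near background, turned to 0.12. The means of UBE2B, UBE2D2 and PSMB7, close to 0 and not called, were negative under other settings too. Over 96 named genes and all alternatives, 1106 values kept their side of the threshold, 216 lost and 66 gained a call and 40 reversed. Why these values differ between settings was not tested, apart from the smaller number of arrays. Limits: 4 arrays with a single dye orientation cannot tell a dye effect from a group effect, a ratio near background is a bound at best, and 21 genes fixed for naming had no probe under their name and were not analysed here.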
